A study of Mus musculus with 4 samples.

Results

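The JAK2V617F lesion was read on cells that already carried the TET2 knock-down, by setting the double mutant array against the TET2KD array. Both arrays held LSK cells (lineage-negative, Sca-1+, c-Kit+), the bone marrow fraction that contains hematopoietic stem cells and the earliest multipotent progenitors. Mice of strain C57B6 had been lethally irradiated and given E14.5 fetal liver cells of 1 of 4 genotypes, and the sorted LSK cells were hybridised to 1 Agilent mouse expression array per genotype. Cells were collected 10 weeks after transplantation for TET2KD (TET2 knock-down mice), 13 weeks for the double mutant (TET2 knock-down with the JAK2V617F transgene), and 16 weeks for JAK2V617F (transgene alone) and for WT. Each group is given as 5 mice on 1 array, and whether the mice were pooled, which promoter drives the transgene and how TET2 was knocked down are not given in the sources used here. A gene was compared when at least 1 of its probes was flagged well above background on either array, which 32929 of 55681 probes were, and this gave 14565 genes of the 16088 that were above background on any of the 4 arrays. The comparison therefore holds the lesion, the 3 weeks between collections and the difference between 1 pair of arrays, which cannot be told apart, and no p-value can be given.

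JAK2 is the kinase bound to the receptors for erythropoietin, G-CSF, GM-CSF and IL-3. The JAK2V617F form signals without the hormone, phosphorylates STAT5 and STAT3, and is the common driver of the myeloproliferative neoplasms. Among the genes that STATs switch on are the SOCS proteins and CISH, which bind the receptor or the kinase and shut the signal down, and the PIM kinases, which favour survival. TET2 oxidises methylated cytosine in DNA, and its loss is frequent in the same diseases and enlarges the stem cell compartment.

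Values are log2 signals relative to the 75th percentile of each array, and differences are double mutant minus TET2KD on the log2 scale. Repeated spots of 1 probe within an array had an SD of 0.159 in the double mutant and 0.151 in TET2KD, which gives an SD of 0.219 for a difference between the arrays. That spread is printing and scanning error alone and holds no difference between animals. Signals well above background began at -3.19 in the double mutant and -2.79 in TET2KD, and the brightest spots that failed the flag were at -2.68 and -2.35. Where a probe failed on 1 array, that side was set to this lowest signal or to its own if higher, which is called the floor here, and where all of a gene's probes were so treated a fold is written as at least. Tet2, the gene targeted in both groups, was read by 3 probes. At mm9 chromosome 3, 133126751 to 133126810, TET2KD had 56.3% and the double mutant 61.6% of the WT signal. At 133126905 to 133126964, TET2KD had 27.3% and the double mutant 60.3%, so that the arrays differed 2.21-fold on 1 of the neighbouring probes and 1.10-fold on the other. The third, at 133176421 to 133176479, passed background in the double mutant alone and differed at least 1.90-fold. The Jak2 probe read the arrays alike (difference -0.05), and whether it sees the transgene is not given in the sources used here. Xist, the noncoding RNA of the inactive X chromosome, was 8.91-fold lower in the double mutant on the probe at chromosome X, 100662174 to 100662233 (mm9), where the signal was 1.62 in TET2KD and -1.53 in the double mutant against 5.57 in WT and 4.05 in JAK2V617F. The sex of donors and recipients is not given in the sources used here, and its part in the results below was not tested.

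Of 14565 genes, 2297 (15.8%) were at least 2-fold higher in the double mutant than in TET2KD and 2263 (15.5%) at least 2-fold lower. The median gene differed by 0.02, and the 25th and 75th percentiles of all genes were -0.59 and 0.62. These shares are the background against which the counts in each gene group are read. Just inside the 2-fold line, 707 genes differed 2.0-fold to 2.2-fold, and 920 just outside it differed 1.8-fold to 2.0-fold. Ordered by brightness and split evenly in 4, the dimmest 3642 genes had 303 higher and 470 lower, the next 3641 had 801 and 748, and the brightest 3641 had 497 and 388. Probes of 1 transcript that lay further apart on the genome (mm9, introns included) agreed less. Outermost probes under 100 bases apart had a Spearman rho of 0.80 between their differences (232 transcripts), those from 100 to under 500 bases apart 0.42 (331) and those at least 500 bases apart 0.12 (1552). Of 4024 genes with at least 2 compared probes, 2180 had all of them on the same side of 0. A difference read by 1 probe is that of 1 stretch of the transcript. Correcting background by the normexp model instead gave 891 genes higher and 807 lower.

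SOCS and other feedback genes of the JAK-STAT pathway included some of the larger differences but did not share a direction. Of 17 compared genes, 7 were at least 2-fold higher and 3 at least 2-fold lower, with a median of 0.65. Over the 13 members with every probe above background on both arrays, 3 were higher and 3 lower and the median was 0.14. The other 4 higher members had at least 1 probe below background in TET2KD, so that Socs1 and Osm entered the comparison through the array on which they were high. Socs2, a feedback inhibitor induced by STAT5, led the list. Its 3 compared probes lie within chromosome 10, 94875066 to 94875527 (mm9). The middle probe, above background on both arrays, was at -1.75 in TET2KD, 1.46 in the double mutant, 2.08 in JAK2V617F and below background in WT (-3.44). It differed 9.27-fold between the double mutant and TET2KD, and its neighbours at least 6.95-fold and at least 5.97-fold. The arrays with the JAK2V617F lesion were thus both high and the arrays without it both low, on all 3 probes. Another Socs2 probe, at 94848005 to 94848064, was below background on all 4 arrays.

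Socs3, which blocks the gp130 and G-CSF receptors, was at -0.31 in TET2KD against 1.86 in the double mutant, a 4.48-fold difference, and at 1.64 in WT and 1.87 in JAK2V617F. Here TET2KD was the low array and the other 3 lay close together. Pim1, a survival kinase, had the same layout, with 1.55 in TET2KD, 2.71 in the double mutant, 2.81 in WT and 2.41 in JAK2V617F. Cish, the STAT5-induced inhibitor of cytokine receptors, was at -0.74 in TET2KD and -0.08 in the double mutant, both below WT (1.05) and JAK2V617F (1.41). The Cish difference of 0.65 did not reach 2-fold. Osm, a STAT5 target that encodes the cytokine oncostatin M, was at least 2.68-fold higher in the double mutant (-1.37), below background in TET2KD and WT, and at 1.11 in JAK2V617F. Socs1 was at least 2.52-fold higher and was above background in the double mutant alone. Id1, an inhibitor of differentiation factors, was 2.33-fold higher, and Cdkn1a, the p21 cell cycle inhibitor, 2.24-fold higher with 1 of its probes at the floor. Myc was 1.97-fold higher, at 3.06 in TET2KD and 4.03 in the double mutant. The other direction held survival and cyclin genes: Pim2 was 3.70-fold lower, Ccnd1 3.14-fold lower and Mcl1 2.02-fold lower. Bcl2l1, which encodes the survival protein BCL-XL, differed by 0.14 as the mean of 2 probes that went opposite ways, 0.86 and -0.59.

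**Figure D1:**
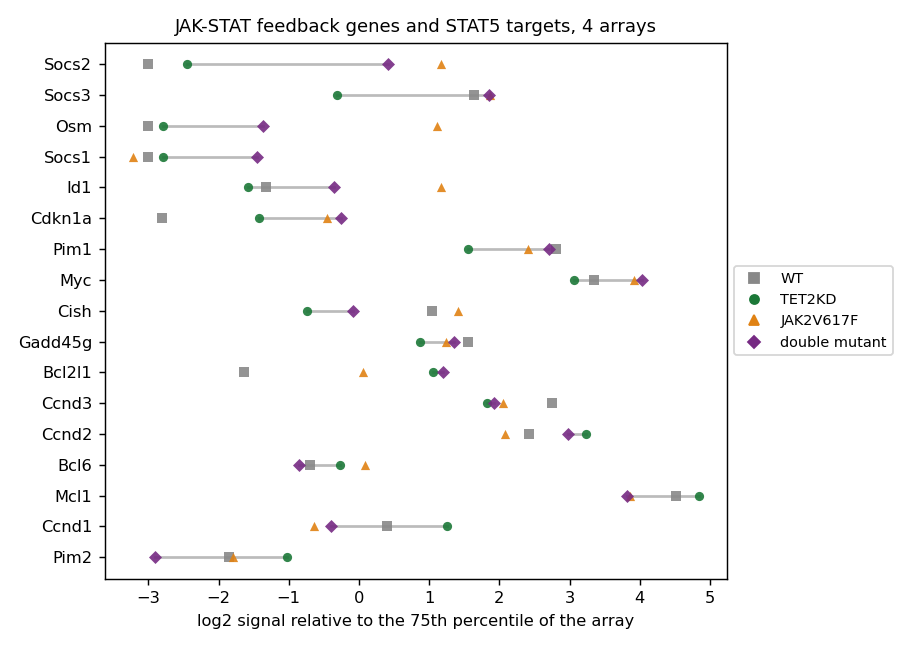
Log2 signal relative to the 75th percentile of the array (x axis) of the 17 measured JAK-STAT feedback genes and STAT5 targets (rows) on the 4 arrays, with 1 marker per array, means over a gene's compared probes and a grey line from TET2KD to the double mutant; signals below background are drawn at the floor or at their own value if higher. Socs2 is high on both arrays with JAK2V617F, while Socs3 and Pim1 are low on the TET2KD array alone.

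Promoter windows were looked up for these feedback genes because STAT dimers bind the palindrome TTCNNNGAA, read alike on both strands. RefSeq windows (GRCm38.p6, 250 bases before to 50 after the gene start) matched 11 of the 17 genes, Socs2 and Osm not among them. A match lay in 3 of the 11 (Socs3, Cish and Bcl6), beside 8.60% of the 11501 compared genes with a window and 8.30% of all 32851 windows. Of the 4 genes with a window that were at least 2-fold higher (Socs1, Socs3, Pim1 and Cdkn1a), Socs3 alone held one. The Socs3 stretch of 250 bases upstream of the start (chr11:117969367-117969616, minus strand) and the first 30 bases of Cish (chr9:107296659-107296688, plus strand) are shown because they carry the matches, which are in capitals.
Socs3: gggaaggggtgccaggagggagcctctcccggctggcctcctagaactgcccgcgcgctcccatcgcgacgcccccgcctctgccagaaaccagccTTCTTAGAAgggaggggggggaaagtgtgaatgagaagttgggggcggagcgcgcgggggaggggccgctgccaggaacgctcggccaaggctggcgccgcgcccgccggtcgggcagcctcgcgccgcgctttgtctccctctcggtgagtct
Cish: TTCCTGGAAagTTCTTGGAAatctgtcaaa
The Socs3 match begins 154 bases before the start, and the Cish matches begin at the start and 11 bases after it. A match describes the letters in the window and was not measured as binding.

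The kinases and STATs themselves did not stand higher. None of 11 was at least 2-fold higher and 3 were lower, with a median of -0.37: among them Jak1 by 2.42-fold and Stat2, which acts in interferon signalling, by 2.28-fold. Stat5a differed by -0.84, Stat5b by -0.54 and Stat3 by 0.61, all under 2-fold. Of 15 genes listed as other regulators of JAK-STAT signalling, 4 (26.7%) were higher and 2 (13.3%) lower, beside 15.8% and 15.5% over all genes. Not all of them act on JAK2 itself or as inhibitors. The higher ones were Pias3, Ptpn11 (the phosphatase SHP2), Pias4 and Socs7, at 2.66-fold, 2.63-fold, 2.15-fold and 2.10-fold. Pias2 was 6.47-fold lower, and Sh2b3, the adaptor LNK, differed by 0.34.

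Cytokine receptors did not share a direction. Of 27, 6 (22.2%) were at least 2-fold higher and 4 (14.8%) lower, near the 15.8% and 15.5% over all genes. Over the 22 measured on both arrays 3 were higher and 4 lower. Il7r, the IL-7 receptor of lymphoid progenitors, was at least 11.3-fold higher and above background in the double mutant alone (0.71). Il6st, the gp130 chain shared by the IL-6 family, was 8.01-fold higher, from 0.39 in TET2KD to 3.39. Tnfrsf1b and Ifngr2 were at least 6.22-fold and 4.30-fold higher. Csf1r, the M-CSF receptor, was 3.68-fold higher as the mean of 3 probes, but its brightest probe differed by -0.074. Kit, the receptor used in the sort, was 2.73-fold lower (3.82 and 2.37), with both JAK2V617F arrays below both others. Epor, Csf3r and Csf2rb differed by 0.53, -0.35 and 0.66.

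Genes of granulocyte and monocyte progenitors were the group with the highest median. Of 23 measured, 13 were at least 2-fold higher in the double mutant and 1 lower, and the median was 1.33. Over the 19 measured on both arrays 10 were higher and none lower. Ctsg and Prtn3, proteases of primary granules, were 3.30-fold and 2.35-fold higher. The Ctsg signal was 4.50 in TET2KD and 6.22 in the double mutant, above 2.62 in WT, and 5.91 in JAK2V617F. Mpo, myeloperoxidase, was 1.99-fold higher, just short of the line, whereas Elane, neutrophil elastase, differed by -0.14. The granule genes were therefore not uniformly apart: TET2KD already lay above WT in Mpo (4.88 and 3.88), Prtn3 (2.44 and 1.11) and Elane (3.34 and 0.70). Genes of monocytes were among the higher members. Ly86, which encodes the MD-1 partner of RP105, was at least 30.8-fold higher, F13a1, the coagulation factor XIII A chain of monocytes, 7.98-fold with 1 probe at the floor, Fcgr3 4.52-fold and Irf8, the factor that directs monocyte and dendritic fate, 4.30-fold. The Irf8 signal was lowest in WT (-0.39), then 0.49 in TET2KD and 1.53 in JAK2V617F, and highest in the double mutant (2.59). Cst7 was 7.54-fold higher, Anxa3 at least 5.89-fold, Gfi1, a repressor needed for granulocyte fate, 4.47-fold, and Hp 4.20-fold, and Ms4a3 differed by 1.63. The lineage factors Cebpa, Cebpe and Spi1 differed by 0.26, 0.07 and -0.61. Fcnb, a ficolin of later granulocytes, was the lower member, 5.95-fold with 1 probe at the floor. In bulk RNA, fewer cells of a type and less RNA per cell cannot be told apart.

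Stem cell genes stood lower. Of 31 measured, 13 were at least 2-fold lower in the double mutant and 1 higher, with a median of -0.82. Over the 21 measured on both arrays 8 were lower and 1 higher. Txnip, which restrains growth and glucose uptake in quiescent cells, was 7.33-fold lower over 2 probes, with 2.36 in TET2KD, -0.52 in the double mutant, 2.92 in WT and 0.30 in JAK2V617F. Angpt1, the TIE2 ligand of stem cells, was 4.87-fold lower (3.51 and 1.23), and WT (4.74) and JAK2V617F (2.87) had the same order. Meis1, a HOX cofactor needed for stem cell maintenance, was at 2.45 in TET2KD and 0.19 in the double mutant, a 4.78-fold difference, with 3.17 in WT and 2.14 in JAK2V617F. Hlf, a stem cell transcription factor, was 2.26-fold lower, Erg 3.06-fold on its 1 probe above background (0.054 on the log2 scale when its probes below background were averaged in) and Prdm16 at least 4.13-fold. Msi2, an RNA-binding protein of stem cells, and Esam, a stem cell surface protein, were 2.96-fold (1 probe at the floor) and 4.28-fold lower. In both of these the double mutant was low and the other 3 arrays were at 1.57 or above for Msi2 and at -0.65 or above for Esam. Procr, Fgd5 and Ndn, other stem cell markers, differed by 0.24, -0.18 and -0.24. Ifitm1 was the higher member, 3.78-fold, at 3.86 in TET2KD and 5.78 in the double mutant, with 3.93 in WT and 5.88 in JAK2V617F. Without the 4 members that also mark megakaryocytes or endothelium, the median over 27 genes was -0.68.

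**Figure D2:**
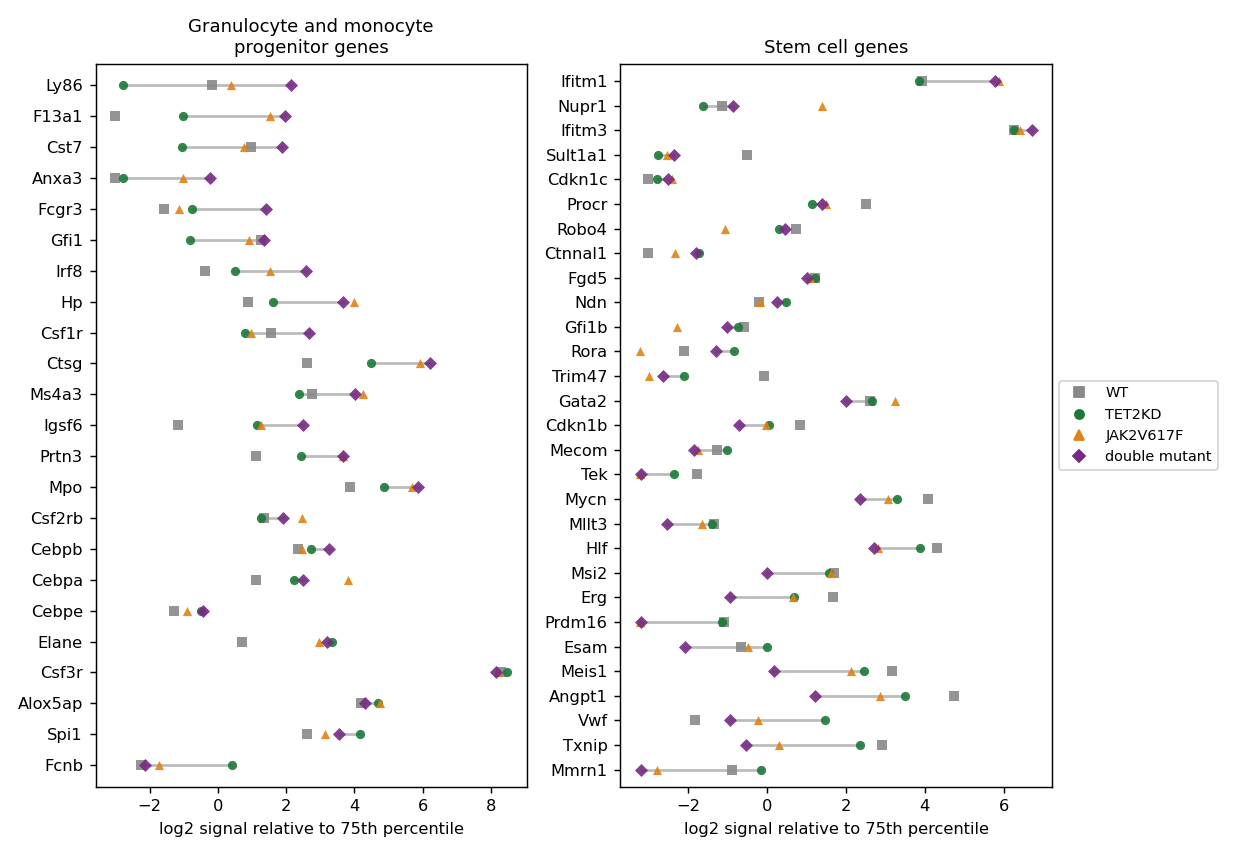
Log2 signal relative to the 75th percentile of the array (x axis) of 23 granulocyte and monocyte progenitor genes (left) and 29 of the 31 stem cell genes (right) on the 4 arrays, ordered by the difference double mutant minus TET2KD, with grey lines joining those arrays and values below background drawn at the floor or their own signal. In the left panel 13 genes lie at least 2-fold to the right in the double mutant, and in the right panel 11 of the 29 drawn lie at least 2-fold to the left.

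The HOXA cluster and its cofactors share members with the stem cell list, among them Meis1, so the 2 lists are not independent. Of 11, 4 were at least 2-fold lower and 1 higher, and the median was -0.60. Over the 8 measured on both arrays 2 were lower and 1 higher. Hoxa9, the cluster's main growth-promoting gene in myeloid progenitors, was 5.23-fold lower over 2 probes, at 2.31 in TET2KD and -0.07 in the double mutant. Hoxa3 was 2.40-fold lower with 1 probe at the floor, and Hoxa10 was 2.64-fold higher.

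Among markers of other cell types, some lists stood lower and others did not share a direction or lay near the shares over all genes. Genes of mast cells, basophils and eosinophils were 8 of 14 at least 2-fold lower and 2 higher, with a median of -1.36. Their summed signal, in multiples of the 75th percentile, was 227 in TET2KD and 78.0 in the double mutant, beside 320 in WT and 37.2 in JAK2V617F. Eosinophil granule genes made up most of it: Epx was 7.33-fold lower, Ear2 3.51-fold and Prg2 2.92-fold, the last from 7.16 in TET2KD to 5.61. The 2 higher members were Siglecf, also an eosinophil marker, and Mcpt8, a basophil marker. Siglecf was 4.59-fold higher with 1 probe at the floor, and Mcpt8, below background in TET2KD, at least 5.2-fold. Fcer1a, Ms4a2, Ccr3 and Cd200r3, which define basophils, mast cells or eosinophils, were below background on both arrays. Endothelial and stromal genes were 6 of 14 lower and 1 higher, but over the 7 measured on both arrays 2 were lower and 1 higher (median -0.28). The sums over the list were 24.5 in TET2KD and 14.1 in the double mutant, beside 16.5 in WT and 12.9 in JAK2V617F. Emcn was at least 17.0-fold lower, Bgn at least 19.2-fold, Cxcl12 at least 14.4-fold and Lepr at least 4.78-fold, whereas Cdh5, Flt1, Pdgfra and Col1a1 were below background on both arrays. These 4 entered the comparison through TET2KD alone. TET2KD was the highest of the 4 arrays for each of Emcn, Bgn, Cxcl12 and Lepr, Bgn was also bright in WT (0.85), and Emcn is known from stem cells as well.

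Megakaryocyte and platelet genes were 7 of 17 lower and 2 higher (median -0.74). The lower ones included Pf4, a platelet chemokine, 3.15-fold, Vwf, 5.37-fold, and Plek, 2.75-fold. Pf4 was at 2.33 in TET2KD, 0.68 in the double mutant, 0.63 in WT and 2.8 in JAK2V617F. In the same order Vwf was at 1.48, -0.95, -1.82 (1 probe below background) and -0.22, and Plek at 2.88, 1.42, 2.11 and 1.49. The sum over the list was 37.9 in TET2KD and 20.5 in the double mutant, beside 35.8 in WT and 34.1 in JAK2V617F. Gp9, Gp6 and Tubb1 were below background on both compared arrays. Red cell genes were 8 of 20 lower and 3 higher, with a median of -0.21. Their sum was 1469 in TET2KD and 1267 in the double mutant, beside 1207 in WT and 1223 in JAK2V617F. The globins Hba-a1 and Hba-a2 were 2.80-fold and 5.67-fold lower, and near-identical copies may share their signal. Hba-a1 was at 4.13 in TET2KD and 2.64 in the double mutant, beside 0.21 in WT and -2.04 in JAK2V617F. Hba-a2 was below background in WT and JAK2V617F, so both globins were higher in the double mutant than in WT. Gata1, the erythroid and megakaryocyte factor, was 9.65-fold higher, from -2.51 in TET2KD to 0.76, beside 2.18 in WT and 0.95 in JAK2V617F. Plasma cell genes were 4 of 11 lower and none higher (sums 32.1 in TET2KD and 27.7 in the double mutant). Mature neutrophil genes were 1 of 17 lower and 2 higher, with a median of -0.49 and sums of 112 and 78.6. Monocyte, macrophage and dendritic genes were 5 of 16 higher and 4 lower, and 1 each way over the 8 measured on both arrays. Ccr2 and Cx3cr1, receptors of circulating monocytes, were at least 6.04-fold and at least 5.63-fold higher, while Vcam1 was at least 15.5-fold lower. C1qa, C1qc, Mrc1 and Itgax, markers of macrophages and dendritic cells, were below background on both. B cell genes were 2 of 9 lower with Ms4a1 and Ebf1 below background on both, and T and NK genes were 2 of 13 higher and 2 lower with Cd3d, Cd3g and Cd8a below background. The part of each of these in the stem cell and progenitor results was not tested.

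Of the genes that define the sort, Ly6a (Sca-1) differed by -0.71 and Kit by -1.45, and all 7 measured gate and subset genes were above background on both arrays, with Slamf1 above it on neither. Cd48, absent from the most primitive stem cells and gained by multipotent progenitors, was 3.86-fold higher (-0.10 and 1.85). Thy1 was 2.69-fold higher, and Cd34 and Flt3 differed by -0.13 and -0.82. Lymphoid priming genes as a list did not share a direction: 4 of 18 were higher and 3 lower, among them Ltb at 6.49-fold lower and Rag2 at 3.50-fold lower.

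Mitotic genes stood higher in the double mutant. Of 53 genes of G2 and mitosis, 23 were at least 2-fold higher and 5 lower, 44 lay above 0 and the median was 0.70. Over the 41 measured on both arrays 18 were higher and 3 lower. Aurka, the kinase of the mitotic spindle poles, was 13.3-fold higher, at -1.06 in TET2KD, 2.68 in the double mutant, 1.26 in WT and 2.21 in JAK2V617F. Cdca8 and Incenp, parts of the chromosomal passenger complex, were 6.38-fold and 4.44-fold higher, Birc5, its survivin subunit, 4.01-fold, and their kinase Aurkb differed by 0.33. Cenpe was 6.22-fold higher, Kif2c at least 8.62-fold, Cdc25c at least 2.58 on the log2 scale, and Plk1 and Bub1 were 4.06-fold and 4.77-fold higher. TET2KD was the lowest of the 4 arrays for 27 of the 53 genes, as with Birc5 (1.53 in TET2KD and 3.53 in the double mutant, beside 3.17 in WT and 3.73 in JAK2V617F). The same share over all genes was not counted, and 44 of the 53 already lay below the double mutant in TET2KD. The count of 27 therefore cannot be read as particular to mitotic genes. Mki67, the proliferation antigen, differed by 0.67 (3.99 and 4.65) and Hmmr by 0.13. Espl1, Cenpf and Cdc25b were at least 11.3-fold, at least 10.4-fold and 4.13-fold lower. DNA replication genes were less far apart: 10 of 43 were higher and 1 lower, 35 lay above 0 and the median was 0.29. E2f2, Gins2 and Mcm10 led, at 7.24-fold, 5.77-fold and at least 5.74-fold. Rrm2, the ribonucleotide reductase subunit of S phase, was 2.85-fold higher. The cyclins, kinases and inhibitors of G1 were 3 of 16 higher and 1 lower, near the share over all genes: Cdk6 was 2.28-fold and Rb1, which holds cells in G1, at least 5.99-fold higher, beside the Cdkn1a and Ccnd1 values above.

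**Figure D3:**
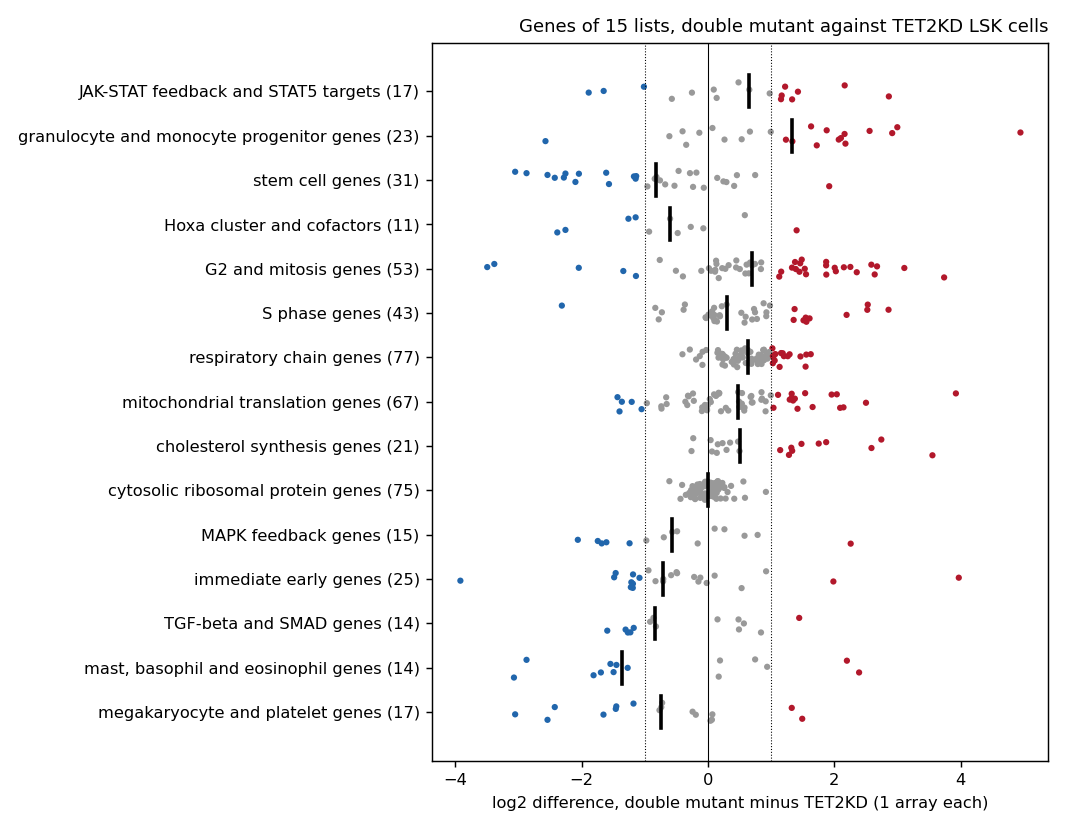
Log2 difference, double mutant minus TET2KD (x axis), of each measured gene in 15 lists (rows, number of genes in brackets), with points jittered vertically, red at least 2-fold higher, blue at least 2-fold lower and a black bar at the median. The progenitor list has its median at 1.33 and the stem cell list at -0.82, and the 75 cytosolic ribosomal protein genes all lie between the dotted 2-fold lines.

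Respiratory chain genes lay higher nearly throughout. All 77 were above background on both arrays with every probe, 70 lay above 0, 16 were at least 2-fold higher and none lower, and the median was 0.63. Complex I, which takes electrons from NADH, had 10 of 37 higher with a median of 0.70. Complexes III with cytochrome c, IV and V had medians of 0.77, 0.60 and 0.53, and complex II, which is shared with the citric acid cycle, 0.31 over 4 genes. Ndufab1, the mitochondrial acyl carrier protein, was 3.09-fold higher over 2 probes, and Ndufs3 and Ndufc1 2.94-fold and 2.92-fold. The summed signal of the 77 genes, in multiples of the 75th percentile, was 901 in TET2KD and 1284 in the double mutant, beside 1169 in WT and 1375 in JAK2V617F, which places TET2KD lowest. Mitochondrial ribosomal and translation genes were 16 of 67 higher and 5 lower (median 0.48), among them Mrpl35 at least 15.2-fold and Mrps2 4.42-fold higher over 2 probes. Factors that build ribosomes in the nucleolus were 7 of 28 higher and 1 lower (median 0.43), with Utp20 at 3.99-fold and Mrto4 at 3.76-fold. The cytosolic ribosomal proteins did not differ as a group: none of 75 reached 2-fold in either direction and their median was 0.00.

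Cholesterol synthesis genes were a further group on the higher side. Of 21 measured, 10 were at least 2-fold higher and none lower, 19 lay above 0 and the median was 0.50. Over the 14 measured on both arrays 6 were higher and none lower. The list runs from acetyl units through mevalonate and squalene to cholesterol, and the members furthest apart sat in its middle. Fdps, which makes farnesyl diphosphate, was 11.7-fold higher, with -1.94 in TET2KD, 1.61 in the double mutant, -0.63 in WT and 1.66 in JAK2V617F. Fdft1, squalene synthase, was 6.70-fold higher with 1 probe at the floor, and Mvd, which forms isopentenyl diphosphate, at least 6.01-fold. Idi1 and Sqle, which act before and after Fdps and Fdft1, were 2.79-fold and 2.49-fold higher. Insig1, which holds the SREBP factors back when sterol is plentiful, was at least 3.66-fold higher and Srebf2, the transcription factor that drives the pathway, 2.21-fold over 2 probes. The steps from lanosterol onwards were mixed: Nsdhl was at least 2.52-fold higher, whereas Msmo1, Ebp and Dhcr7 differed by 0.29, 0.15 and 0.23, and Cyp51 was below background in TET2KD and barely above it in the double mutant (-2.73).

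**Figure D4:**
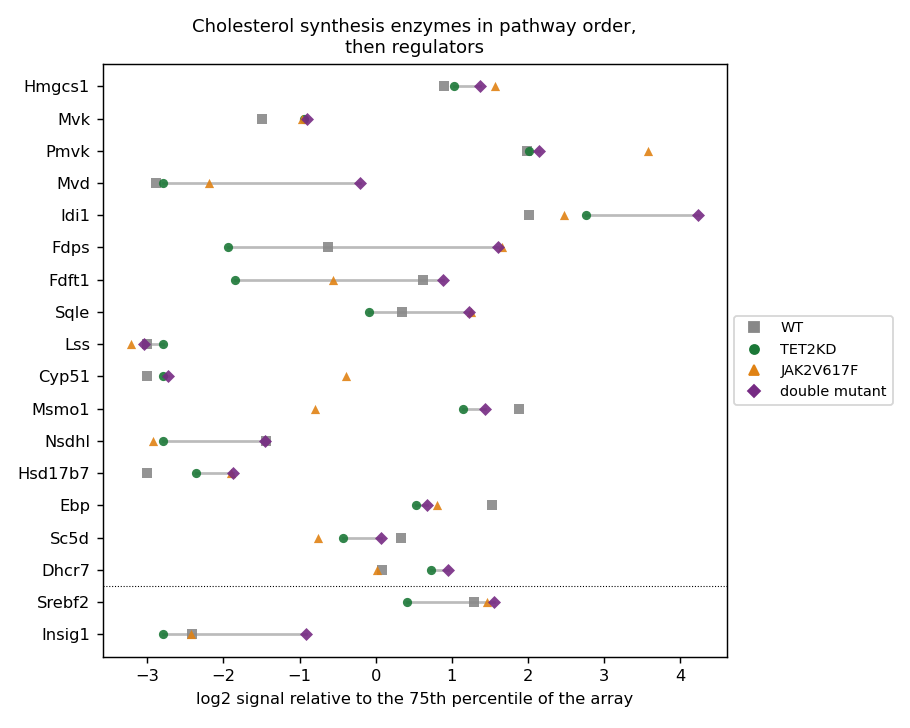
Log2 signal relative to the 75th percentile of the array (x axis) of 16 cholesterol synthesis enzymes in pathway order from the top and, under the dotted line, Srebf2 and Insig1, on the 4 arrays, with grey lines from TET2KD to the double mutant and values below background drawn at the floor or their own signal. The longest lines belong to Fdps (11.7-fold), Fdft1 and Mvd, in the middle of the pathway.

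Immediate early genes, which respond within minutes to growth factors and to handling of cells, were lower. Of 25, 9 were at least 2-fold lower and 2 higher, and the median was -0.71. Most of these genes were bright: Fosb was at 9.51 in TET2KD and 8.29 in the double mutant, Jun at 6.23 and 5.04, and Klf6 at 6.50 and 5.04, differences of 2.32-fold, 2.28-fold and 2.76-fold. Fosl1 was at least 15.1-fold lower and above background in TET2KD but not in the double mutant. Egr3 and Nr4a3 went the other way, 15.7-fold and 3.96-fold higher, while Egr1, Egr2 and Nr4a1 differed by -0.71, -0.83 and -0.94. Feedback genes of the MAPK pathway, the other branch downstream of JAK2, were 5 of 15 lower and 1 higher (median -0.57). Over the 12 measured on both arrays 3 were lower and 1 higher (median -0.33). The lower members Dusp4 and Errfi1 were below background in the double mutant and entered the comparison through TET2KD alone. Dusp6, the ERK phosphatase, was at 4.40 in TET2KD, 2.72 in the double mutant, 4.89 in WT and 3.42 in JAK2V617F. Spry1, a Sprouty inhibitor, had the same order, with -0.26, -1.87, 0.73 and -1.39. Both arrays with the lesion were thus below both without it for these 2 genes, 3.21-fold and 3.05-fold between the double mutant and TET2KD. Rasa1, a Ras GTPase activating protein, was 4.78-fold higher. TGF-beta and SMAD genes, a list that holds inhibitors of the pathway as well as its mediators, were 5 of 14 lower and 1 higher (median -0.84). Smad2 was 3.02-fold lower, Tgfbr2, the ligand-binding receptor, 2.47-fold and Smad7, an inhibitor of the pathway, 2.41-fold. The ligand Tgfb1 was 2.72-fold higher.

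The list of TET and DNMT enzymes, which also holds other genes tied to cytosine methylation, had 5 of 13 higher and none lower (median 0.52). Over the 11 measured on both arrays 4 were higher and none lower (median 0.29), and these were not all methyltransferases or TET enzymes. Dnmt1, the maintenance methyltransferase, was 3.04-fold higher (-0.52 and 1.08), Tet3 2.21-fold and Idh2, the enzyme whose mutant form inhibits TET2, 2.09-fold. Tet1 and Dnmt3a differed by 0.25 and 0.29. Interferon genes did not share a direction, with 4 of 33 higher and 8 lower: Oas3 was 7.71-fold lower and Gbp2 4.24-fold, and Ifit3 was above background in TET2KD (0.23) but not in the double mutant, while Irf7, the master regulator, was at least 3.54-fold higher. Inflammatory genes were 6 of 27 (22.2%) higher and 1 (3.7%) lower, beside 15.8% and 15.5% over all genes. Over the 23 measured on both arrays 4 were higher and none lower. The higher ones included the chemokines Cxcl1, below background in TET2KD, at least 6.26-fold, and Cxcl10, 4.56-fold over 2 probes. Targets of p53 were 7 of 22 higher and 5 lower, with Pmaip1, the death gene NOXA, 5.07-fold higher and Plk2 7.44-fold lower.

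The largest single differences mostly rested on 1 probe. Among genes measured on both arrays, H2-DMb2, an MHC class II chaperone chain, was 31.2-fold higher (-2.07 and 2.89), and Wdtc1 27.8-fold. Mrpl58, a mitochondrial peptide release factor, Trmt61b, a mitochondrial tRNA methyltransferase, and Sdhaf1, an assembly factor of complex II, were 20.8-fold, 20.8-fold and 16.0-fold higher. Klf9, a Kruppel-like factor, was 30.5-fold lower, at 2.41 in TET2KD, -2.52 in the double mutant, 2.03 in WT and 0.41 in JAK2V617F. Arfgef2 was 26.8-fold lower, Irf5, an interferon regulatory factor of myeloid cells, 20.6-fold, and Gab1, a docking protein of receptor kinases, 15.9-fold. In Gab1 the TET2KD array was the high one, at 1.53, and the other 3 were low. The Arfgef2 value is that of 1 probe (2.75 in TET2KD), and its other probe was below background on both compared arrays but above it in WT (-0.92) and JAK2V617F (-1.11). Among genes below background on 1 array, Smim13 and Endod1 were at least 42.3-fold and at least 37.3-fold higher, and Aqp3, a water and glycerol channel, and Plod2, a collagen lysyl hydroxylase, at least 42.9-fold and at least 38.4-fold lower.

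Setting JAK2V617F against WT gives the same lesion without the TET2 knock-down, on 2 other arrays collected at the same week. There, 2309 of 14897 genes (15.5%) were at least 2-fold higher and 2342 (15.7%) at least 2-fold lower. Over the 8926 genes with every probe above background on all 4 arrays, 54.9% differed in the same direction in both comparisons, and the Spearman rho across genes was 0.12. Of the 1179 of these that were at least 2-fold higher on the TET2 knock-down background, 255 (21.6%) were also at least 2-fold higher without it, which is 23.4% of the 1092 there, and 160 were at least 2-fold lower. Of 1036 lower genes, 258 (24.9%) were also lower, 23.9% of 1079, and 149 were at least 2-fold higher. In JAK2V617F minus WT, 12.2% of the 8926 genes passed 2-fold upwards and 12.1% downwards. Both same-direction overlaps lay above these shares over all genes. The opposite-direction counts, 160 of 1179 and 149 of 1036, did so too, by a smaller margin. Most genes past 2-fold in 1 comparison were not past it in the other. Of the lists, 24 of 39 with at least 8 genes had medians of the same sign. Granulocyte and monocyte progenitor genes had a median of 1.18 in JAK2V617F minus WT beside 1.33, and 13 of 24 were at least 2-fold higher. Stem cell genes had -0.84 beside -0.82, G2 and mitosis genes 0.56 beside 0.70, MAPK feedback genes -0.88 beside -0.57 and mast cell, basophil and eosinophil genes -2.24 beside -1.36. Respiratory chain genes had 0.23 beside 0.63, and JAK-STAT feedback genes 0.30 beside 0.65. Immediate early, megakaryocyte and TGF-beta genes, all lower on the knock-down background, had medians of 0.10, 0.12 and 0.14 without it. Whether any list differed between the backgrounds was not tested, since each comparison is 1 pair of arrays.

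**Figure D5:**
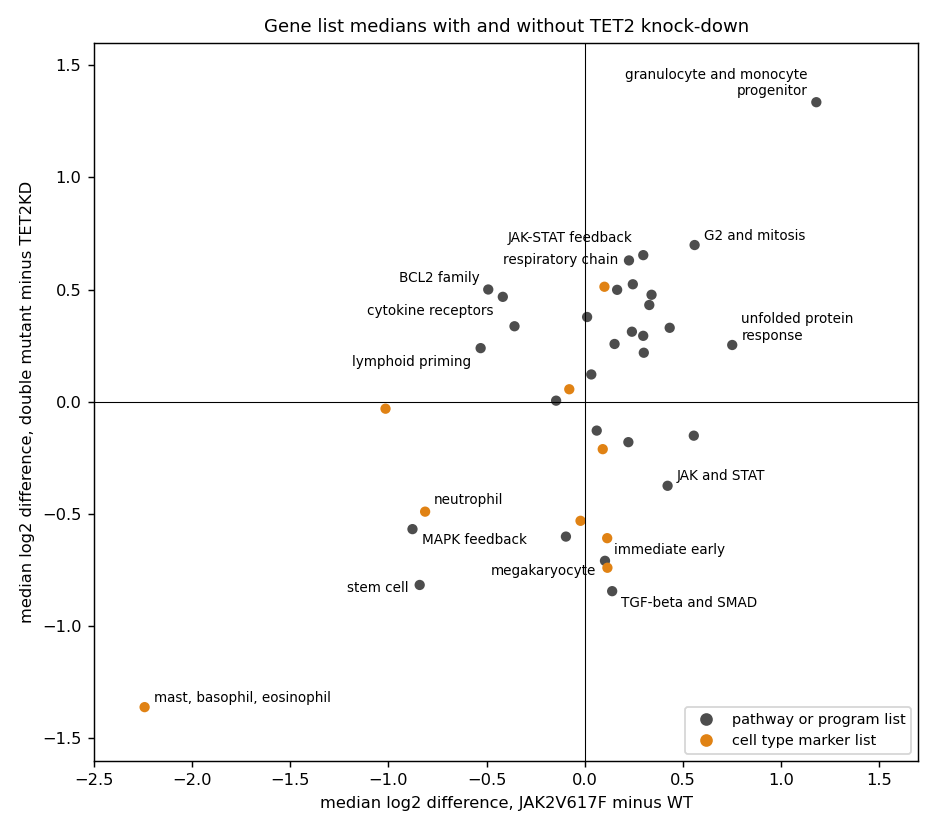
Median log2 difference of each of 39 gene lists in JAK2V617F minus WT (x axis) and in double mutant minus TET2KD (y axis), grey for pathways and programs and orange for cell type markers; the 4 arrays each enter 1 axis. The progenitor list lies at the upper right (1.18, 1.33), the eosinophil and stem cell lists at the lower left, and 24 of the 39 lists have the same sign on both axes.

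Single genes that differed in both comparisons included Eef1e1, a tRNA synthetase complex factor, 13.5-fold higher beside 5.21-fold, and Got1, the cytosolic aspartate aminotransferase, 9.16-fold beside 21.4-fold. Uxt, a prefoldin-like cofactor with 2 probes, was 5.34-fold and 7.16-fold higher. Eya2, a phosphatase and transcription cofactor, was 13.9-fold and 6.44-fold lower, Ypel2 9.63-fold and 11.5-fold, and Epx, eosinophil peroxidase, 7.33-fold and 18.0-fold. Socs2 belongs with the first set, since WT was at the floor and JAK2V617F at least 34.1-fold above it on the middle probe.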

How the data were processed

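The deposited scanner files hold linear intensity values made by the authors with Agilent Feature Extraction 10.7.3.1 on 1-colour arrays, per the file headers, with 62976 spots, of which 59305 are not controls, and probe positions on mm9. A deposited table of log2 values equals the scaled scanner signals plus a constant per array (column medians -2.64, -2.63, -2.60 and -2.60 for WT, TET2KD, JAK2V617F and the double mutant), so scale and centring are settled, and served as an alternative. From the processed signal, log2 values minus the 75th percentile of each array were computed, flagged outlier spots were dropped (162 to 199 an array) and spots were averaged per probe, then probes per gene. A probe counted as above background when at least 50% of its kept spots were flagged so, which 49.4% to 54.7% of spots were, and no spot was saturated. With 1 array a group there is no replicate, no test was run and the number of arrays limits the precision.

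Probes were named through RefSeq accessions or symbols (GRCm38.p6, names only): 28026 by accession, 3418 by symbol, 295 by an older symbol, while 23942 stayed unnamed. The 41 gene lists held 1007 genes, of which 918 were compared, 83 were below background on both arrays and 6 had no named probe. The members and lists were chosen with earlier results of these data known. Named genes are the targeted genes, the JAK-STAT feedback list, the largest differences of bright genes, up to 6 of each list with the largest difference of at least 2-fold, and genes at least 2-fold apart on both backgrounds; others were named after their values were seen, mostly as members of a list that did not reach 2-fold or that readers know as its defining genes. Alternatives were normexp background correction (limma 3.58.1, offset 50), quantile, cyclic loess and detected-median scaling, filters on dim probes, the brightest probe, the deposited log2 table and a 3-fold line. R 4.3.3, Python 3.11.15, numpy 2.4.6, pandas 2.3.3 and matplotlib 3.10.9 were used, and the comparison was tested on simulated data. Some list members count in their lists but are not reported here by name.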

Additional observations from a re-analysis of the deposited data

Results flagged for a closer look

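Some genes and list medians had opposite signs on the 2 backgrounds, each measured on 1 pair of arrays, so the difference between the backgrounds was not tested. Values are double mutant minus TET2KD, then JAK2V617F minus WT, on the log2 scale. Higher with and lower without the TET2 knock-down were Tbc1d2b (2.82 and -3.73), Zfand2a (2.99 and -2.40), Klhl12 (2.36 and -3.27), Zfp41 (2.88 and -2.35), Strn4 (2.33 and -2.79) and Ddx52 (2.37 and -2.33). Lower with and higher without it were Actr1b (-3.10 and 3.07), Atp7a, a copper transporter (-3.75 and 2.98), Pcyt1a, an enzyme of phosphatidylcholine synthesis (-3.12 and 2.73), Cog3 (-3.36 and 2.52), Lmo3 (-2.40 and 2.35) and Klhl8 (-2.31 and 2.32). By the naming rule, 132 genes went the first way and 114 the second. The medians of 5 lists with at least 8 compared genes also had opposite signs; they were picked by a line at 0.219 on both sides, which covers printing and scanning error alone and does not show that a list moved. JAK kinases and STAT factors were at -0.37 and 0.42, other JAK-STAT regulators at 0.34 and -0.36 and cytokine receptors at 0.47 and -0.42. Lymphoid priming genes were at 0.24 and -0.53, and BCL2 family genes at 0.50 and -0.49. Most shared members nevertheless went the same way in 3 of these lists: 16 of 26 cytokine receptors, 8 of 13 BCL2 family genes and 9 of 15 other JAK-STAT regulators. The cytokine receptor median in double mutant minus TET2KD was 0.11 over the 22 genes measured on both arrays.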

How the results depend on the processing

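The count of genes at least 2-fold apart depended most on the treatment of dim signal. Normexp correction gave 891 higher and 807 lower, probes above background on both arrays gave 1500 and 1496 among 11526 genes, and a 3-fold line gave 1046 and 1104. Quantile, cyclic loess and detected-median scaling gave 2222 to 2363 higher and 2256 to 2354 lower, the deposited log2 values 2379 and 2183, and the brightest probe 2417 and 2371. Without any filter, 3394 and 3316 of 22559 genes were counted, and the median gene stood at -0.19. Under normexp the list medians were 0.37 for JAK-STAT feedback genes, -0.41 for stem cell genes and 0.42 for G2 and mitosis genes, the last 0.94 with the brightest probe. Over all lists and alternatives, 358 list medians moved by less than 0.219, the repeated-spot SD of a difference, and 35 by more. Under normexp alone, 14 list medians moved by more and 35 by less. Of the named-gene differences, 238 moved by more than 0.219 under normexp and 74 by less. Some named folds fell short of 2-fold there, among them Pim2 (-0.74), Socs1 (0.32) and Pias3 (0.43). Among named genes, Csf1r (-0.074) changed direction when read by its brightest probe, and Erg (0.054) when its probes below background entered too. An alternative chosen after seeing the data left out stem cell genes that also mark other cell types and gave -0.68. No paired analysis was possible because each group is 1 array and the labels give no replicate numbers. Dim genes, near the background signal of either array, have a bound or a compressed difference.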

Other observations

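Unfolded protein response genes were 2 of 20 at least 2-fold higher and 2 lower in the double mutant, with a median of 0.25, beside 8 higher and 3 lower of 21 and a median of 0.75 in JAK2V617F minus WT. Niche adhesion and homing receptors were 4 of 20 higher and 3 lower, with medians of 0.33 and 0.43 in these comparisons. Polycomb and ASXL genes were 5 of 20 higher and 2 lower, and heme synthesis and iron genes were 2 of 18 higher and 5 lower. Glycolysis and hypoxia genes were 5 of 27 higher and 5 lower, with no shared direction.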
